A study of Mus musculus with 12 samples.

Results

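The cation-chloride cotransporters were followed through 5 genes, Slc12a2, Slc12a4, Slc12a5, Slc12a7 and Slc12a9, taken by their symbols from 17550 genes with a symbol on the arrays. They were read by 136 of the 221417 main probesets that carry a symbol, a probeset being the summary of a few short probes in 1 exon or a part of it. Total RNA of whole brains from newborn female mice was compared between 6 wildtype (KIS +/+) and 6 KIS-ko (KIS -/-) animals, with 1 pair of littermates from each of 6 litters and 1 Affymetrix Mouse Exon 1.0 ST array per brain. KIS is the kinase encoded by Uhmk1, which phosphorylates the splicing factor SF1. The knock-out is carried by every cell of the animal, on a C57BL6/N background reached by 10 generations of backcrossing. No other allele or agent is named for either group. The brains were not dissected, so that neurons, glia, vessels and choroid plexus are mixed in each array.

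These carriers move chloride together with cations across the plasma membrane. The product of Slc12a2, NKCC1, brings chloride into the cell with sodium and potassium, whereas KCC2, the product of Slc12a5, carries chloride out of neurons with potassium. The balance of both sets the chloride gradient of a neuron, and with it whether GABA depolarizes or hyperpolarizes the cell. In rodents the depolarizing action of the immature brain gives way to inhibition as Slc12a5 expression increases around and after birth. Slc12a4 (KCC1) and Slc12a7 (KCC4) encode potassium-chloride exporters of many cell types, and Slc12a9 a related protein (CIP1) whose own transport is less settled.

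Slc12a5 has a pair of start sites in RefSeq (build GRCm38.p6), 7142 bases apart on chromosome 2, which begin different first exons of KCC2. Their promoter windows, from 250 bases before to 50 bases after each start, are shown because Usf1, a factor that binds the E-box CACGTG and is known to act on Slc12a5, stands out below among the regulators. CACGTG, which reads the same on both strands, is in capitals. The upstream window lies at chr2:164960596-164960895 and the downstream one at chr2:164967738-164968037, both on the plus strand.
Slc12a5 upstream start: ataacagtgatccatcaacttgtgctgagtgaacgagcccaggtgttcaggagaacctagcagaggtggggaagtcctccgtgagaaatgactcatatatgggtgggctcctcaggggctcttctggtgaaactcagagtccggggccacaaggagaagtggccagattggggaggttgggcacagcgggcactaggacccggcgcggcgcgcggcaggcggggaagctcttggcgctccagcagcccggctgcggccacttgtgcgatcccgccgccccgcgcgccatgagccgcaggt
Slc12a5 downstream start: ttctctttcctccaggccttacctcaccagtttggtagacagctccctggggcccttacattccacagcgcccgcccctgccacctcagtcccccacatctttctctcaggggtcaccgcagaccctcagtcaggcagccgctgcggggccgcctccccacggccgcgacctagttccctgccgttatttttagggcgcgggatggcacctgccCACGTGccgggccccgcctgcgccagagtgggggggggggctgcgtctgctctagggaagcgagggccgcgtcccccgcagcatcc
The motif is found 1 time in the downstream window, beginning 36 bases before the start, and not in the upstream one. It is held by 7.15% of the 32851 RefSeq promoter windows of this length. Windows of Slc12a7 and Slc12a9 also hold it, and that of Slc12a4 does not. Of the Egr motifs GCGTGGGCG and GCGGGGGCG, searched on both strands because Egr4 is another regulator of Slc12a5, no match was found in these windows (3.47% of all windows have one). Windows were matched for 4 of the 5 genes, and that of Slc12a2 was not searched here.

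Array positions follow the deposited table. It names no genome build and was not lined up with GRCm38.p6. The table lists Slc12a2 on chromosome 18 from 58038548 to 58105941, Slc12a4 on chromosome 8 from 108467546 to 108489995, Slc12a5 on chromosome 2 from 164793904 to 164824340, Slc12a7 on chromosome 13 from 73901173 to 73954185, and Slc12a9 on chromosome 5 from 137755902 to 137773906. The probesets of Slc12a5 span 30437 bases, against a RefSeq gene of 38886 bases, so that which of its starts they follow was not determined.

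The genotype labels were checked on Uhmk1, for which KIS-ko minus wildtype was -2.11 on the log2 scale (standard error, SE, 0.068, limma adjusted p = 2.9e-07), with a lower value in 6 of 6 litters. Of 17279 genes it was the only 1 (0.00579%) at an adjusted p under 0.05, while 1065 genes (6.16%) had an unadjusted p under 0.05. With 1 litter left out, the latter count ran from 579 of 17259 genes (without litter 6) to 4017 of 17271 (without litter 4). The arrays still differed in scale, with array medians between 478 and 546 and a median difference of all genes of -0.036. In litter 4 the median gene was higher in the KIS-ko brain by 0.099, and it was lower in the other 5 litters. The neuronal markers were strongly detected, with a mean level over 9 of 10 listed genes between 12.10 and 12.25 on the wildtype arrays. None of the 9 was at or below the median intron control.

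Of the 136 cotransporter probesets, 135 passed the limit of 0.4 on the relative standard deviation (the SD over the mean) in each genotype, and the one rejected belongs to Slc12a7. A gene value is the mean over its kept probesets of log2(signal + 16), signal being the linear PLIER intensity, and a change of dim probesets is understated on this scale. The detection of the 5 genes differed. For Slc12a5, 28 of 28 probesets were brighter on average than 713, a level that 95% of the 5222 intron control probesets do not exceed, with signals from 835 to 4456. For Slc12a2 this held for 21 of 33 probesets, with signals from 204 to 3530. Slc12a9 had 7 of 16 probesets above this level. Slc12a4 had only 3 of 28 and Slc12a7 1 of 30, so that most of what is said of both rests on signals in the range of the controls. In Slc12a7 the last probeset was listed at about 0 on every array. Probes differ in affinity, and the levels of different genes are not ranked here.

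**Figure D1:**
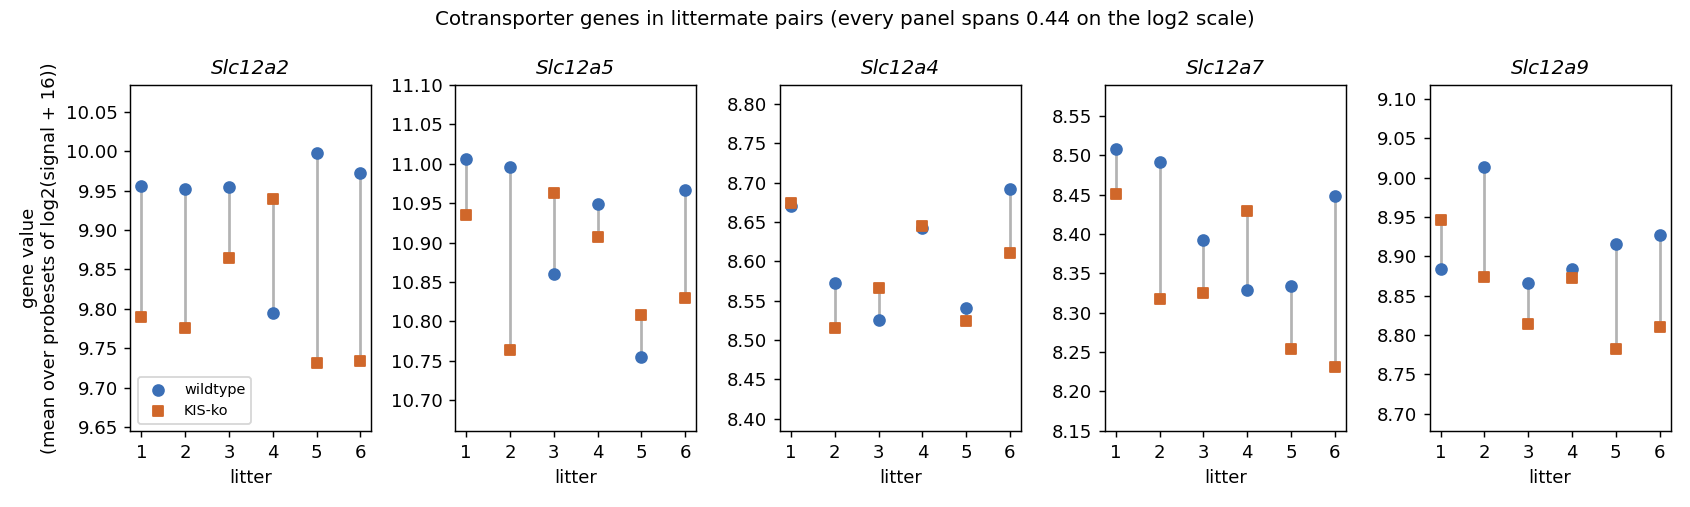
Gene values of the 5 cotransporter genes (y axis, mean over probesets of log2(signal + 16)) in each litter (x axis). Circles are wildtype and squares KIS-ko brains, with a grey line between littermates. Slc12a2 was lower in the KIS-ko brain of 5 litters and higher in litter 4, and in no gene were the genotypes separate.

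None of the 5 genes differed between the genotypes past the threshold. All 5 had a lower mean in KIS-ko brains, with differences from -0.13 to -0.018 on the log2 scale, against 69.8% of all genes with a negative difference. With the arrays centred on their medians, 3 of the 5 were lower, against 38.7% of all genes. Of the 5 genes, 0 passed at an adjusted and 0 at an unadjusted p under 0.05 in limma, where 6.16% of all genes passed the latter (4.34% lower and 1.82% higher). Slc12a2 lay close to that limit (unadjusted p = 0.0507, limma adjusted p = 0.685). Its unadjusted limma p was 0.020 without the litter block, 0.038 with a pseudocount of 64, 0.041 with the relative SD limit at 0.2 and 0.038 with trend and robust moderation, with adjusted p from 0.612 to 0.747. It was 0.063 after a new quantile normalization, 0.081 on bright probesets, 0.098 on centred arrays and 0.145 with the median over probesets, and from 0.075 to 0.145 with litter 1, 2, 3, 5 or 6 left out. In 3 of 5 genes the KIS-ko brain was lower in at least 5 of 6 litters, as in 22.5% of all genes, and in 0 of 5 it was higher in at least 5 (6.15%). In 0 of 5 it was lower in all 6 litters (1.6%). In 0 of 5 were the arrays of the genotypes separate, as they were in 0.208% of genes. Each value is that of a whole brain, in which fewer cells of a type and less RNA per cell cannot be told apart.

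Slc12a2, the chloride importer NKCC1, had the largest difference of the 5 as fitted, though not with the median over probesets (-0.11, against -0.14 for Slc12a7) or on bright probesets (-0.097, against 0.15 for Slc12a7). Its gene value on the wildtype arrays ran from 9.79 to 9.998 with a median of 9.96, and on the KIS-ko arrays from 9.73 to 9.94 with a median of 9.78. The wildtype brain of litter 4 was the lowest of its genotype and the KIS-ko brain of the same litter the highest of its own, so that the groups overlapped through this litter. Means and SDs were 9.94 ± 0.072 for the 6 wildtype and 9.81 ± 0.082 for the 6 KIS-ko brains. The difference was -0.13 (SE 0.060, 95% interval -0.27 to 5.1e-04, limma adjusted p = 0.685). Within litters 1 to 6 the differences were -0.17, -0.18, -0.091, 0.15, -0.27 and -0.24. The KIS-ko brain was thus the lower one in 5 of 6 litters. Exact permutation of the signs of the 6 litter differences (two-sided, as for every such test here) gave p = 0.0938, the smallest value it allows being 0.0313. Without litter 4 the difference was -0.19 (SE 0.046, limma adjusted p = 0.114), with an unadjusted p = 0.0029. In that setting 23.3% of all genes had an unadjusted p under 0.05, and 19.4% were also lower. With the arrays centred on their medians, which moved the median difference of all genes to 0.018, the difference of Slc12a2 was -0.077 (SE 0.041, limma adjusted p = 0.731).

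Slc12a5, the neuronal chloride exporter KCC2, showed a smaller difference that did not keep its sign. Its wildtype values ran from 10.75 to 11.01 with a median of 10.96, and its KIS-ko values from 10.76 to 10.96 with a median of 10.87. Both ranges were nearly the same, and the lowest wildtype brain was that of litter 5. The means were 10.92 ± 0.097 and 10.87 ± 0.079 (SD, n = 6 each), with a difference of -0.054 (SE 0.055, 95% interval -0.18 to 0.068, limma adjusted p = 0.732). The KIS-ko brain was lower in 4 of 6 litters, with -0.23 in litter 2 as the extreme, and higher in litters 3 and 5, by up to 0.10 (exact sign permutation p = 0.344). With every array centred on its median the difference became 0.0026. By the study's measure, in which the KIS-ko over wildtype ratios of the probesets are averaged with more weight on the less variable ones, the fold change was 0.972 ± 0.074 (SD, n = 6 pairs) for Slc12a5 and 0.937 ± 0.067 (SD, n = 6 pairs) for Slc12a2.

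The ratio of Slc12a2 to Slc12a5 was taken on each array as the difference of both gene values. The scale of an array cancels in it except for the constant of 16 added to each signal. Its absolute size depends on the probes and is not a ratio of molecules, so that only its change between brains is read. On the wildtype arrays the log2 ratio ran from -1.15 to -0.76 with a median of -1.02, and on the KIS-ko arrays from -1.15 to -0.97 with a median of -1.09. The KIS-ko values lay inside the wildtype range. Means and SDs were -0.98 ± 0.14 for the 6 wildtype and -1.06 ± 0.069 for the 6 KIS-ko brains. In linear terms, the median probeset signal of Slc12a2 over that of Slc12a5 was 0.487 ± 0.057 in wildtype and 0.458 ± 0.049 in KIS-ko brains (SD, n = 6 each).
Within litters 1 to 6 the log2 ratio differed by -0.096, 0.056, -0.19, 0.19, -0.32 and -0.10 between the KIS-ko and the wildtype brain. Litter 4 moved most toward a higher and litter 5 most toward a lower ratio, the wildtype brain of the latter having the highest ratio of all. The mean difference was -0.078 ± 0.18 (SD, n = 6 litters, 95% interval -0.27 to 0.11), the ratio being lower in 4 of 6 litters (exact sign permutation p = 0.3125). The mean difference was -0.13 without litter 4 and -0.030 without litter 5. On bright probesets only it was -0.043 (exact sign permutation p = 0.531). It was -0.079 on centred arrays and -0.067 after a new quantile normalization.

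**Figure D2:**
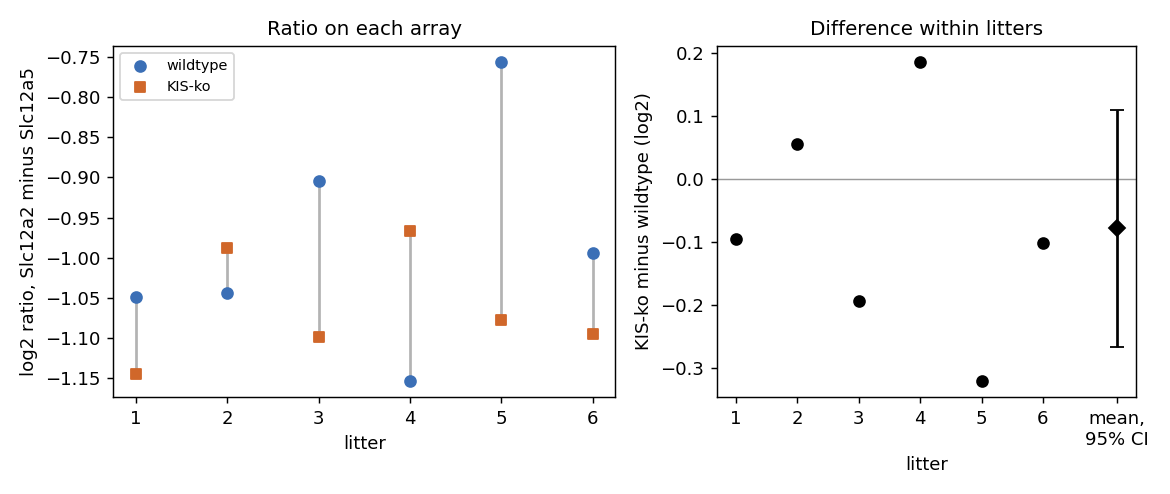
Log2 ratio of Slc12a2 to Slc12a5 on each array (left, circles wildtype, squares KIS-ko, lines join littermates) and the KIS-ko minus wildtype difference in each litter (right, with the mean and its 95% interval as a diamond and bar). The differences lie on both sides of 0 and the interval spans it, from -0.27 to 0.11.

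Slc12a4, which encodes KCC1, did not differ past the threshold. Its wildtype values ran from 8.53 to 8.69 with a median of 8.61, and its KIS-ko values from 8.52 to 8.67 with a median of 8.59. The KIS-ko brain was lower in 3 litters and higher in the other 3, and the difference was -0.018 (SE 0.044, 95% interval -0.12 to 0.080, limma adjusted p = 0.882). It was 0.036 on centred arrays, 0.032 after a new quantile normalization, and 0.030 on its 3 bright probesets.
Slc12a7, which encodes KCC4, ran from 8.33 to 8.51 with a median of 8.42 in wildtype and from 8.23 to 8.45 with a median of 8.32 in KIS-ko brains. The groups overlapped over most of their ranges. It was lower in 5 of 6 litters, litter 4 again being the exception, with a difference of -0.083 (SE 0.053, 95% interval -0.20 to 0.034, limma adjusted p = 0.685; exact sign permutation p = 0.156). Without litter 4 it was -0.12 (unadjusted p = 0.038, limma adjusted p = 0.195), on centred arrays -0.030, and with the median over probesets -0.14. Its only bright probeset, the first one, had a difference of the opposite sign (0.15, SE 0.080, limma adjusted p = 0.762). In the gene fit on bright probesets the same difference had an SE of 0.064 (unadjusted p = 0.042, limma adjusted p = 0.748).
Slc12a9 ran from 8.87 to 9.01 with a median of 8.90 in wildtype and from 8.78 to 8.95 with a median of 8.84 in KIS-ko brains. The highest KIS-ko brain, that of litter 1, was above 5 of the 6 wildtype brains. Its difference was -0.065 (SE 0.048, 95% interval -0.17 to 0.042, limma adjusted p = 0.690), lower in all litters but litter 1 (exact sign permutation p = 0.125). On centred arrays it was -0.010 (SE 0.041). The fold changes of Slc12a4, Slc12a7 and Slc12a9 by the study's measure were 0.986, 0.967 and 0.976, with SDs over the 6 pairs of 0.027, 0.050 and 0.041.

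Single probesets show whether a part of a transcript departs from the rest. Of the 135 kept probesets, 110 (81.5%) were lower in KIS-ko brains, against 66.2% of all probesets. Probesets of a gene read the same RNA and are not independent. At an unadjusted p under 0.05 in limma there were 11 (8.15%), of which 10 were lower, against 6.63% of the 205469 probesets tested, and 0 passed after adjustment (0.00487% of all). The count of 11 became 29 of 134 without litter 4, 2 of 134 without litter 6, 3 of 135 without litter 3 and 5 of 135 without litter 5, as well as 5 of 135 on centred or requantiled arrays and 3 of 60 bright probesets. Shares of all probesets in these settings are not given here. Of all genes, 4017 of 17271 had such a p without litter 4 and 579 of 17259 without litter 6. The count of genes was 852 of 17243 without litter 3 and 1178 of 17269 without litter 5. Centred arrays gave 1107 of 17255 genes, requantiled ones 1215 of 17268 and bright probesets 644 of 11425. In Slc12a2, 33 of 33 probesets were lower, with differences from -0.33 to -0.014. Its 21 bright probesets had a median difference of -0.087 and its 12 dimmer ones of -0.21. In Slc12a5, 24 of 28 were lower, from -0.18 to 0.033, and 0 had an unadjusted p under 0.05.
The first probeset of Slc12a5, at 164793904 to 164793928, differed by -0.10 (SE 0.092) and the last, at 164823183 to 164824340, by -0.045 (SE 0.12), and neither passed the threshold. Relative to the gene value they stood at -0.047 (SE 0.064) and 0.0094 (SE 0.089). In Slc12a4, 15 of 28 probesets were lower and the differences ran from -0.19 to 0.21. The highest of them, at 108479498 to 108479522, was 545 ± 88.3 in wildtype and 639 ± 128 in KIS-ko brains (signal, SD, n = 6 each) and was higher in every litter (limma adjusted p = 0.751).

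**Figure D3:**
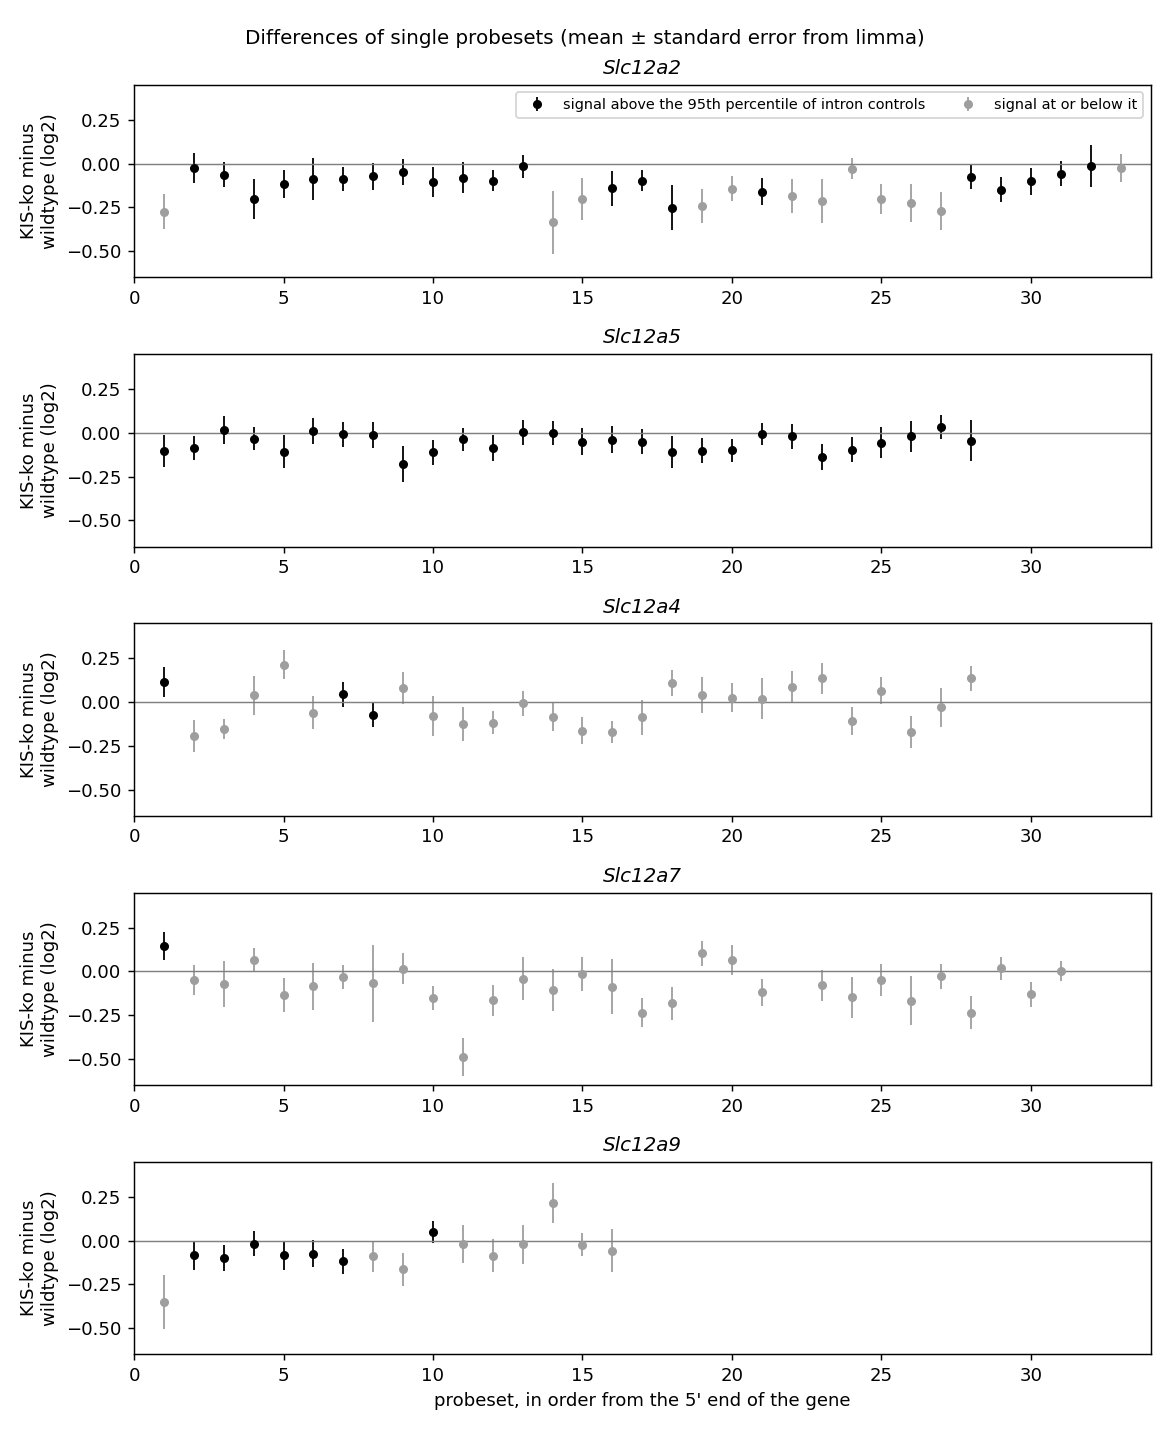
KIS-ko minus wildtype difference (y axis, log2) of each kept probeset, in order from the 5′ end (x axis), with the standard error from limma as bars. Black points have a signal above 713 and grey points do not. All 33 points of Slc12a2 lie below 0, while those of Slc12a4 lie on both sides.

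The splicing index is the difference of a probeset after the gene value of the same array is subtracted. An unadjusted p under 0.05 was found for 11 of the 135 probesets (8.15%), against 6.11% of all probesets tested, and 0 passed after adjustment (9.85e-04% of all). This count was 3 of 135 without litter 3, 4 of 134 without litter 6, 15 of 134 without litter 4, 6 of 135 without the litter block, 7 of 136 without the relative SD limit and 0 of 59 on bright probesets. The shares of all probesets in these settings are not given here, so these counts are not read as more or fewer than elsewhere. The lowest value was that of Slc12a7 at 73931531 to 73931560, which departed from its gene by -0.41 (SE 0.080, limma adjusted p = 0.608). Its signal was 114 ± 29.3 in wildtype and 75.9 ± 17.6 in KIS-ko brains (SD, n = 6 each), at or below the median intron control of 114, and its own difference was -0.49, lower in 6 of 6 litters.
In Slc12a2 the splicing index was lowest for the probeset at 58071546 to 58071638 (-0.20, SE 0.14), and in Slc12a5 for that at 164808316 to 164808461 (-0.12, SE 0.078). Neither passed the threshold.

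The spread between brains was small for these genes. Over the 12 arrays the SD of the gene value was 0.101 for Slc12a2, 0.089 for Slc12a5 and 0.091 for Slc12a7, and 0.065 and 0.064 for Slc12a4 and Slc12a9, against a median of 0.114 over all genes. Of all genes, 38.1% had a lower SD than Slc12a2, 28.1% than Slc12a7, 26.2% than Slc12a5, 6.94% than Slc12a4 and 6.24% than Slc12a9. Genes were not matched by their number of probesets. Once the median gene of each array was subtracted, the SD of Slc12a7 was 0.038, with a lower SD in 0.770% of the genes. Those of Slc12a5 and Slc12a2 were 0.053 and 0.075, with a lower SD in 5.53% and 21.6%. Only 1 of the 30 kept probesets of Slc12a7 was above the control level of 713. The genes whose relative values were most like those of Slc12a2 among 6907 bright genes were Etf1, a translation termination factor, Thrap3, which takes part in mRNA processing, and Atp1b3, a beta subunit of the sodium-potassium pump, with Pearson r of 0.947, 0.920 and 0.906 over the 12 arrays (Spearman rho of 0.867, 0.909 and 0.902). For Slc12a5 they were Ak1, an adenylate kinase, Clstn3, a synaptic adhesion protein, and Grm4, a metabotropic glutamate receptor, with r of 0.845, 0.833 and 0.817 (rho of 0.762, 0.783 and 0.860). The arrays share litters and genotypes, the best of so many genes is high by selection, and no test is given.

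Slc12a1, Slc12a3 and Slc12a8 were read beside them. The kidney carriers Slc12a1 (NKCC2) and Slc12a3 (NCC) had 0 of 26 and 1 of 25 probesets above the control level of 713, and Slc12a8 had 0 of 15. Their differences were 0.030, 0.055 and 0.061 and did not pass the threshold (adjusted p from 0.702 to 0.816 in limma).

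The activity and expression of these carriers depend on other proteins. Kinases of the WNK family act through SPAK (Stk39) and OSR1 (Oxsr1), which phosphorylate NKCC1 and KCCs, and Cab39 proteins assist the latter kinases. Neto2, creatine kinase B (Ckb) and Pacsin1 bind KCC2, and Egr4, Usf1, Usf2, Rest and BDNF signalling through Ntrk2 act on Slc12a5 expression. Of the 24 listed regulators, 22 were measured, 16 of them lower and 6 higher in KIS-ko brains, with a median difference of -0.043 against -0.036 over all genes, of which 69.8% were lower. At an adjusted p under 0.05 in limma 0 passed, and at an unadjusted p 1 was lower and 1 higher, where 4.34% and 1.82% of all genes were.
The higher one was Usf1, an E-box binding factor. Its values ran from 8.59 to 8.81 in wildtype and from 8.78 to 9.19 in KIS-ko brains, an overlap of a narrow range. The difference was 0.30 (SE 0.069, limma adjusted p = 0.534) and it was higher in 6 of 6 litters, as were 0.920% of all genes (exact sign permutation p = 0.0313, its smallest value). Of its 14 probesets, 6 match only 1 place in the genome, and on these the difference was 0.45. The sign stayed positive in all 17 alternatives, with values from 0.24 to 0.45 and adjusted p from 0.061 to 0.929. The table lists Usf1 on chromosome 1 from 173344569 to 173348558, 1199 kb from the targeted gene Uhmk1, and the part of this position in the difference was not tested. Usf2, its partner, differed by 0.019 (SE 0.047, limma adjusted p = 0.881).
The lower one was Rest, a repressor of neuronal genes, with values from 8.57 to 8.76 in wildtype and from 8.26 to 8.69 in KIS-ko brains. The difference was -0.15 (SE 0.066, limma adjusted p = 0.685), with a lower KIS-ko brain in 5 of 6 pairs (exact sign permutation p = 0.0938), as in at least 5 for 22.5% of all genes. It was -0.080 with the relative SD limit at 0.2, -0.086 on bright probesets, -0.097 on centred arrays and -0.26 with the median over probesets. Its unadjusted limma p, 0.045 as fitted, was above 0.05 in the first 3 of these settings (0.186, 0.153 and 0.063), after a new quantile normalization (0.064), with a pseudocount of 1 (0.0501) and without litter 1, 2, 3 or 6 (0.076 to 0.136). For the 7 genes of the WNK, SPAK and OSR1 kinases and the Cab39 adaptors (Wnk1, Wnk2, Wnk4, Stk39, Oxsr1, Cab39 and Cab39l), grouped by role after their values were seen, the differences ran from -0.11 to -2.7e-04 with the largest in Stk39, and 0 had an unadjusted p under 0.05 in limma (adjusted p from 0.685 to 1.00).

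Other ways for chloride across membranes were read from a list of exchangers and channels. Of these 16 genes, 15 were lower and 1 higher, against 69.8% of all genes lower, and the median difference was -0.055 against -0.036. None (0) had an unadjusted p under 0.05 in limma (6.16% of all genes). The largest differences were those of Cftr, an epithelial chloride channel, with -0.11 (SE 0.053), Ano1, a calcium-activated chloride channel, with -0.10 (SE 0.057), Slc4a10, a neuronal bicarbonate transporter, with -0.099 (SE 0.053), and Clcn7, the lysosomal chloride-proton exchanger, with -0.083 (SE 0.056). For each of them the adjusted p was 0.685 in limma. Over the regulators and these genes together, unadjusted calls went from 2 of 38 to 10 of 38 without litter 4, where 23.3% of all genes had such a p. There were 3 without litter 5 and 1 without litter 1, 2 or 6. The mean signal of Cftr, 90.7, was below the median intron control of 114.

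**Figure D4:**
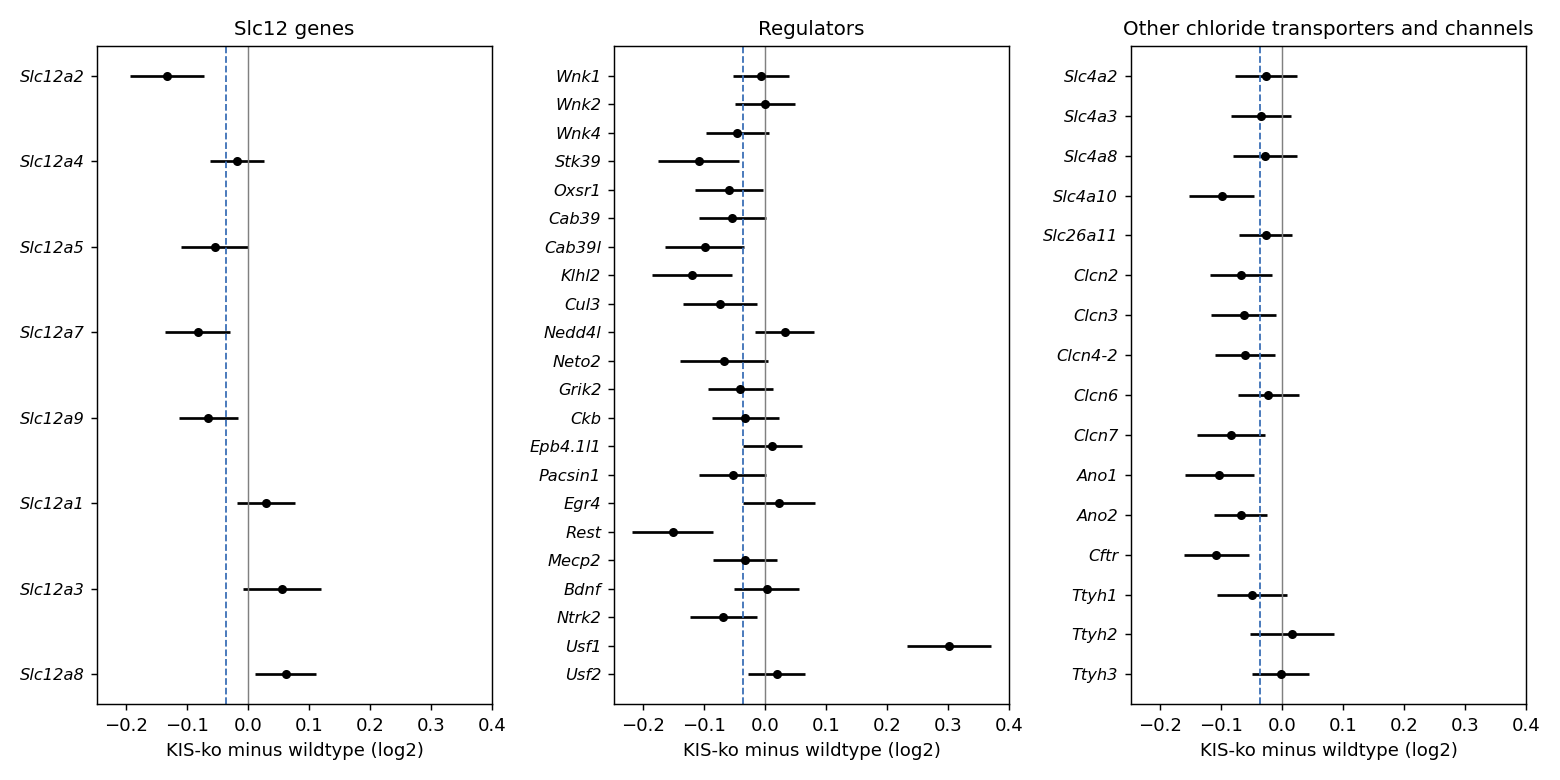
KIS-ko minus wildtype difference (x axis, log2) with the standard error from limma for the 5 cotransporter genes with Slc12a1, Slc12a3 and Slc12a8, the regulators and other chloride transporters and channels. The solid line marks 0 and the dashed line the median of all genes, -0.036. Usf1, at 0.30, lies farthest from the line.

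Markers of the cell types that express these carriers were read on the same arrays. Slc12a2 is used by choroid plexus, glia and endothelium as well as neurons, and Slc12a5 by neurons. The mean over 9 of 10 choroid plexus genes lay between 8.97 and 9.15 on wildtype and between 8.92 and 9.16 on KIS-ko arrays, with 5 of 9 genes lower. The astrocyte and radial glia genes lay between 10.83 and 11.03 on wildtype and between 10.77 and 10.96 on KIS-ko arrays. In litter 4, where Slc12a2 was higher in the KIS-ko brain, all 8 marker lists were higher too, the choroid plexus genes by 0.18, pericytes and meninges by 0.14, endothelium by 0.13, neurons by 0.11, the oligodendrocyte lineage by 0.072, microglia by 0.036, astrocytes and radial glia by 0.022 and erythroid cells by 0.017. The median gene of litter 4 was higher by 0.099. In litter 3 Slc12a2 differed by -0.091, while endothelium was higher by 0.12, the oligodendrocyte lineage by 0.054 and astrocytes and radial glia by 0.053. Choroid plexus genes were higher there by 0.050, erythroid cells by 0.049, neurons by 0.031 and pericytes and meninges by 0.024, with microglia at -0.0043. In litter 5, where Slc12a2 fell most (-0.27), the oligodendrocyte lineage stood at 0.075 and the other lists ran from -0.13 to -0.0029. Neuronal genes were lower in 7 of 9, endothelial in 8 of 10, oligodendrocyte lineage in 7 of 10, and astrocyte and radial glia genes in 9 of 10, with medians of -0.035, -0.058, -0.047 and -0.079. For pericytes and meninges, microglia and erythroid cells the counts were 6 of 10, 8 of 10 and 3 of 10, with medians of -0.013, -0.025 and 0.024. Over all marker lists 2 genes had an unadjusted p under 0.05 in limma, Gfap and Rgs5, both lower, and 0 passed after adjustment. Over all genes 6.16% had such a p and 69.8% were lower, with a median of -0.036. The table lists Rgs5 on chromosome 1 from 171585639 to 171625820, near the targeted gene Uhmk1 (172130014 to 172145483). The part of this position in the difference of Rgs5 was not tested. The part of the cell makeup in the differences of the cotransporter genes was not tested.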

How the data were processed

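Total RNA of 12 newborn brains was measured on exon arrays, 1 array per brain. The authors normalized the exon arrays by quantiles and summarized probes with PLIER in Affymetrix Expression Console. Their deposited table gives 1 linear intensity per probeset and array. Here main probesets with a symbol and a relative standard deviation of at most 0.4 in each genotype were kept, 205469 probesets of 17279 genes. Gene values (mean of log2(signal + 16)), probesets and splicing indexes (genes with at least 3 probesets) were compared by limma (3.58.1, R 4.3.3) using litter as block and empirical Bayes variances, and p-values were adjusted by Benjamini-Hochberg over all features at a threshold of 0.05. Single values were tested by exact sign permutation over 6 litters. The code was tested on simulated data. Plots were drawn with matplotlib 3.10.9.

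The labels and the paper give littermate pairs. The correlation of littermates' deviations was 0.27, -0.059, 0.14, -0.11, 0.47 and -0.11 in litters 1 to 6. The mean correlation with brains of other litters was -0.019. Precision is limited by the number of arrays. The members, lists and tests were chosen with earlier results of these data known. Named were the 5 genes, other Slc12 genes (1 item is not reported here), Uhmk1, regulators and chloride transporters at an unadjusted p under 0.05 or otherwise the 4 of largest difference, and the 3 genes most like Slc12a2 and Slc12a5 among those with at least 4 probesets and a mean signal over 713. Wnk3, Klhl3, Rbfox3 and Kcnj13 were not matched by symbol or RefSeq synonym and were not analysed here. Alternatives were a fit without the block, pseudocounts of 1 and 64, no filter or one at 0.2, bright probesets only, arrays centred or quantile-normalized again, medians over probesets, probesets matching 1 place, trend and robust moderation, and each litter left out.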

Additional observations from a re-analysis of the deposited data

Results flagged for a closer look

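Of 18 sets of 6 values searched for one far from the others (5 genes and the ratio, each in both genotypes and as litter differences), 1 held such a value, about as many as chance gives at 1 in 20. It is the gene value of Slc12a2 in the wildtype brain of litter 4, 9.79, where the nearest other wildtype brain was at 9.95. This brain is also the one with the lowest ratio of Slc12a2 to Slc12a5 among the wildtype brains.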

How the results depend on the processing

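Slc12a2 and Slc12a9 kept a negative log2 difference, and the ratio of Slc12a2 to Slc12a5 a negative mean, under every alternative tried, and none of the 5 genes passed the adjusted threshold under any. On bright probesets only, the difference was 0.030 for Slc12a4 and 0.15 for Slc12a7 (fold changes of 1.02 and 1.12 by the study's measure), resting on 3 and 1 probesets. With the arrays centred on their medians it was 0.036 for Slc12a4 (fold change 1.03) and 0.0026 for Slc12a5, and after a new quantile normalization 0.032 for Slc12a4 (fold change 1.03). In these settings Slc12a9 was at -0.010 and -0.020 (fold changes of 1.01 and 1.001) and Slc12a7 at -0.030 and -0.033. The cause was not tested. The number of genes called over the whole array, 1 as reported, was 2 with a pseudocount of 64, 2 without the relative standard deviation filter, 2 with trend and robust moderation, 5 with the filter at 0.2 and 5 on bright probesets.

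With each litter left out in turn, the difference of Slc12a2 ran from -0.19 (without litter 4) to -0.11, that of Slc12a4 from -0.030 to -0.0055, of Slc12a5 from -0.086 to -0.019, of Slc12a7 from -0.12 to -0.059 and of Slc12a9 from -0.090 to -0.050. The ratio ran from -0.13 (without litter 4) to -0.030 (without litter 5), and the genes called from 1 to 4 (4 without litter 1 and 2 without litter 3). The fit without the replicate block left the 5 differences as they were and moved no adjusted call (for Slc12a2 -0.13 with adjusted p = 0.747 from limma), while the unadjusted p of Slc12a2 went from 0.0507 to 0.020. Signal over background limits what is said of Slc12a4 and Slc12a7.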
